A study of Mus musculus with 6 samples.

Results

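Immediate early genes are transcribed within minutes of a stimulus from factors already present in the cell, without new protein synthesis, and the set followed here held 37 immediate early and stress-activated genes. They were taken by symbol from a list of names, chosen with earlier results of these data known. All 37 had a row in a count table of 15159 mouse genes. Serum, growth factors, stretch and cell damage reach these genes through MAP kinases, which act on serum response factor (SRF) with its ternary complex partners, on CREB and on AP-1 proteins already bound to the promoters, whereas heat shock factors drive the inducible HSP70 genes. Most of the transcripts are short-lived, and many encode transcription factors or the phosphatases, RNA decay factors and signalling inhibitors that end the response. In the heart they are known for their rise with haemodynamic load and hypertrophic agonists and after cell isolation.

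The cells were embryonic cardiac cells from C57BL/6 x 129S4/SvJae mice at embryonic day 18.5. In the H3K9M group they carried an inducible transgene for histone H3.3 with methionine in place of lysine 9, and in the H3WT group an inducible transgene for wild-type H3.3, with 3 libraries in each group. Lysine 9 of histone H3 carries the methyl marks of silenced chromatin, and the methionine mutant is known to block their placement. Both groups shared the substrate (PDMS silicone of 13 kPa), the medium with serum, the density of 50000 cells per cm2, the 4 days of culture and doxycycline at 2 µg/ml on days 0, 1 and 2, so the controls also received the drug and extra H3.3. The labels name neither the promoter that drove the transgene nor, in words, the animals behind each library. The titles carry the tags M1, M3 and M5 for H3K9M replicates 1, 2 and 3 and M1, M2 and M5 for H3WT replicates 1, 2 and 3, whose meaning the labels do not give, and p-values therefore measure the spread between these libraries. In the sample titles, replicate 1 of both groups lacks the tag for day 4 and replicate 2 of both groups lacks the tag for the soft substrate, although the culture protocol is the same for all 6.

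Polyadenylated RNA was counted per gene, with library totals of 55550379 to 67994773. Cardiomyocyte markers were high in every library, with summed levels of 30703 to 34491 CPM (counts scaled to TMM-normalised library sizes) in H3K9M and 28067 to 34581 CPM in H3WT, and all 10 were detected. Markers of other heart cells were also present. The 10 fibroblast markers summed to 11558, 15813 and 18369 CPM in H3K9M replicates 1, 2 and 3 and to 19494, 17175 and 12874 CPM in H3WT replicates 1, 2 and 3, and the 10 macrophage and leukocyte markers to 202, 263 and 260 CPM in H3K9M and 498, 264 and 136 CPM in H3WT. H3K9M replicate 1 thus held the lowest fibroblast sum and H3WT replicate 1 the highest of both. In these bulk samples fewer cells of a type and less RNA per cell cannot be told apart.

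Short stretches upstream of 6 of the genes show the elements through which such promoters are known to be read, and were chosen for their motifs. Each is the 150 bases before the RefSeq transcription start in GRCm38.p6 (the build also called mm10), written 5′ to 3′ on the strand of the gene. Capitals mark TGACG, the core of the cyclic AMP response element, in Fos (chr12:85473740-85473889, plus strand), the CArG box bound by SRF in Egr2 (chr10:67537719-67537868, plus strand, one of several starts), Zfp36 (chr7:28379229-28379378, minus strand) and Dusp5 (chr19:53528995-53529144, plus strand), and GAANNTTC, a pair of inverted heat shock units, in Hspa1a (chr17:34972157-34972306, minus strand) and Hspa1b (chr17:34959239-34959388, minus strand).
Fos: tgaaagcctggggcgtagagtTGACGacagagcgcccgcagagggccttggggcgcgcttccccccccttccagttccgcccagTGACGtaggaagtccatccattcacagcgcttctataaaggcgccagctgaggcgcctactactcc
Egr2: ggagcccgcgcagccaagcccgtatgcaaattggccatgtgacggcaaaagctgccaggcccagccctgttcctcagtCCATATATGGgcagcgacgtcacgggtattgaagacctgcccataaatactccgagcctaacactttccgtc
Zfp36: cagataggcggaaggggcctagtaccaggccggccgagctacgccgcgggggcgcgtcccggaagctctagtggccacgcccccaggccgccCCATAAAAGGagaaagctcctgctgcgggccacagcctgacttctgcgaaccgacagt
Dusp5: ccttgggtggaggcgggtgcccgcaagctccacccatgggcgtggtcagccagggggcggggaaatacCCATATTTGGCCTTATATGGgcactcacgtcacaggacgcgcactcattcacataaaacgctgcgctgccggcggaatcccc
Hspa1a: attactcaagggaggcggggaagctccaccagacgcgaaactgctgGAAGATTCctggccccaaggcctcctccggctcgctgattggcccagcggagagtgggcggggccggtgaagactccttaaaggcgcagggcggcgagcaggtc
Hspa1b: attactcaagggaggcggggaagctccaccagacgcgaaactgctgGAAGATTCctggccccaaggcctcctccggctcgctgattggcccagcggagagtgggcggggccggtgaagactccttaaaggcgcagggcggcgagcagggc

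TGACG began 129 and 66 bases before the Fos start. CArG boxes began 72 bases before the Egr2 start shown, 58 bases before that of Zfp36, and 82 and 72 bases before that of Dusp5, where a pair of boxes adjoined each other. GAANNTTC, read as GAAGATTC, began 104 bases before the start in both HSP70 genes. In windows of 300 bases (250 before the start and 50 after it), searched on both strands, a CArG box was present for 1.81% of 27025 genes, TGACG for 23.05% and GAANNTTC for 9.04%. TGACGTCA, the full cyclic AMP response element that also holds TGACG, was present upstream of Maff, Dusp1 and Btg2 (2.03% of all genes), and TGANTCA, the AP-1 element, upstream of Csrnp1 (8.97%). The motif GCGNGGGCG of EGR proteins, found among others for Zfp36 and Btg2, was present for 6.27% of all genes, and an NF-kB site, found among others for Fos and Ier3, for 9.55%. Of the 37 genes 29 had such a window, and Fosl1, Egr1, Egr3, Klf10, Myc, Ier2, Dusp4 and Arc had no entry. The match of letters describes the sequence and was not tested as a site of binding.

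In H3K9M against H3WT, none of the 37 genes passed the test (edgeR quasi-likelihood, Benjamini-Hochberg adjusted p under 0.05), where 293 of 14758 tested genes did, or 1.99%. All 37 had enough counts to be tested, and their adjusted p-values lay between 0.127 (Egr2) and 0.983 (Nr4a2). The fold change was positive for 31 of the 37, against 49.5% of all tested genes, with a median log2 fold change of 0.33, against -0.00245 over all tested genes. Much of this lay in 1 library. H3K9M replicate 1 was the highest of the 6 libraries for 22 of the 37 genes (59.5%), against 20.04% of all tested genes, and without it 23 fold changes were positive and the median was 0.07. Without H3WT replicate 1, 28 were positive and the median was 0.22. With replicates 2 and 3 of both groups alone, which leaves out both of these libraries, 18 were positive and the median was -0.00285.

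**Figure D1:**
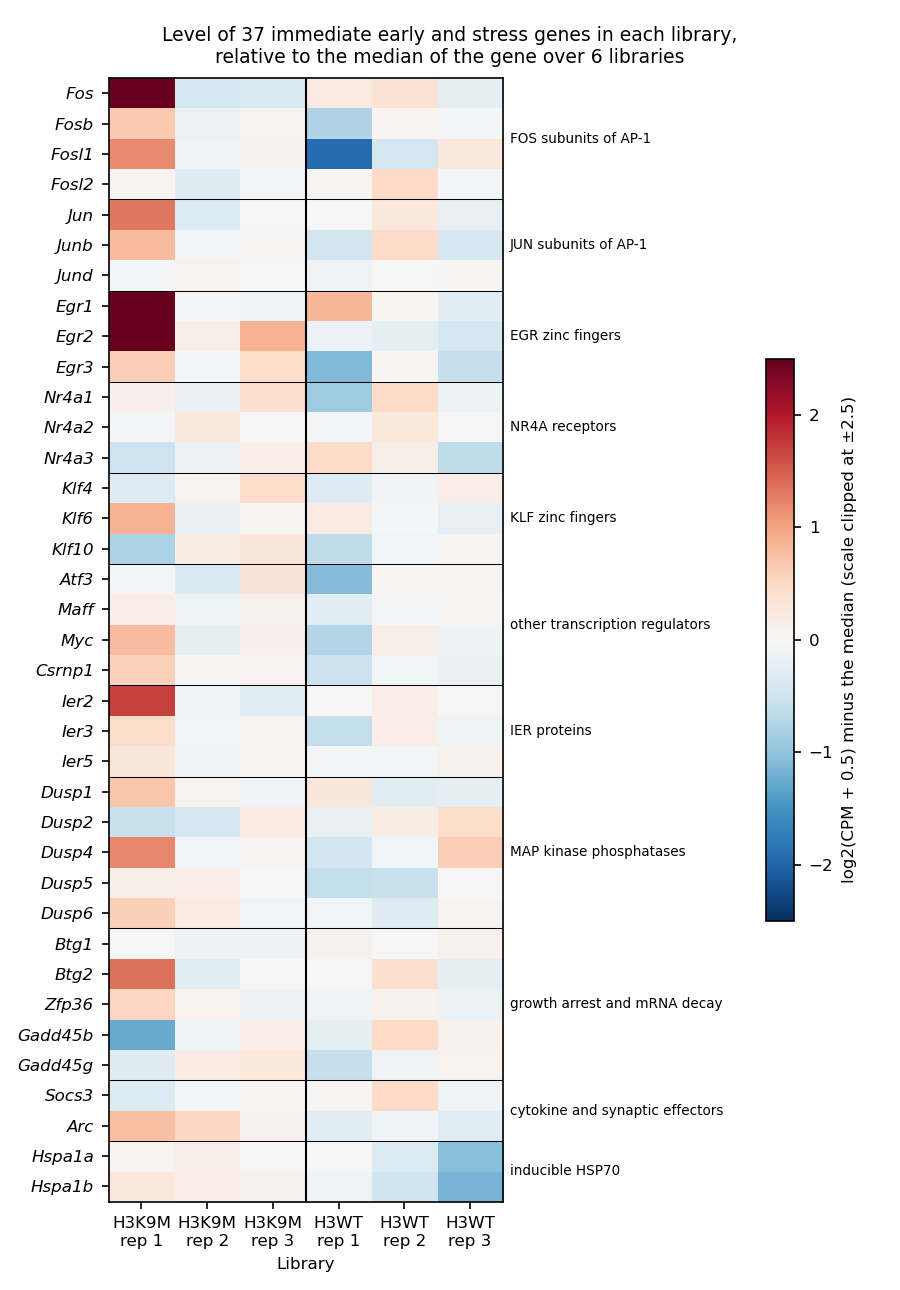
Levels of the 37 genes (rows, grouped by role) in the 6 libraries (columns), as log2(CPM + 0.5) minus the median of the gene over the 6 libraries, with colours clipped at ±2.5. The column of H3K9M replicate 1 is the reddest, with its strongest colours at Fos, Egr1, Egr2 and Ier2. The lowest value lies in H3WT replicates 1, 2 and 3 for 16, 2 and 7 genes. It lies in H3K9M replicates 1, 2 and 3 for 5, 6 and 1 genes.

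Of the other libraries, H3K9M replicates 2 and 3 were each the highest for 4 of the 37 genes, H3WT replicates 1, 2 and 3 for 2, 4 and 1. The lowest library was H3WT replicate 1 for 16 of the 37, where 22.0% of all tested genes were lowest. Within H3K9M, replicate 1 lay above both other libraries for 24 of the 37 genes (36.1% of all tested genes) and at least 2-fold above both for 8 (0.983% of all tested genes), but it lay below both for 9. The SD of log2 CPM between replicates had a median of 0.382 in H3K9M and 0.335 in H3WT over the 37 genes, against 0.146 in H3K9M and 0.157 in H3WT over all tested genes, so the median spread between libraries was larger for these genes in both groups.

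Among the FOS proteins, which pair with JUN proteins to form AP-1, only Fosl2 had a negative fold change. Fos stood at 30.8, 3.34 and 3.54 CPM in H3K9M replicates 1, 2 and 3 and at 5.56, 6.02 and 3.89 CPM in H3WT replicates 1, 2 and 3. H3K9M replicate 1 stood 5.13-fold above the next library, while replicates 2 and 3 lay below all 3 H3WT libraries. The level of Fosl1 was 20.8, 8.18 and 9.67 CPM in the 3 H3K9M libraries, against 1.98, 6.56 and 10.8 CPM in the 3 H3WT libraries. Fosl1, also called FRA1, is a later FOS protein, and its level in H3WT replicate 1 was the lowest of the 6. Fosl2 had 127, 99.3 and 117 CPM in H3K9M and 128, 173 and 118 CPM in H3WT. Fosl2, or FRA2, was highest in H3WT replicate 2, and the groups overlapped. Fosb was low throughout, at 1.28 to 2.61 CPM in H3K9M and 0.677 to 1.53 CPM in H3WT.

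For Fos the log2 fold change, H3K9M over H3WT, was 1.29 ± 0.78 (SE), at an adjusted p of 0.463 in edgeR. Without H3K9M replicate 1 it was -0.58, so the sign of the value for Fos rests on that library. Of the Fosl1 exons 57.2% lie opposite exons of Ccdc85b, and with no strand setting given in the sources used here its reads and those of Ccdc85b cannot be told apart. The same holds, for 0.3% to 7.5% of their exon bases, for Jun, Junb, Csrnp1, Dusp1 and Zfp36.

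The JUN proteins, the partners that bind DNA with FOS or with each other, differed among themselves. H3K9M libraries held 133, 41.3 and 52.6 CPM of Jun, and H3WT libraries 52.7, 63.2 and 45.4 CPM. Jun in H3K9M replicate 1 was 2.10-fold above the next library, and the other 5 libraries overlapped. Junb stood at 129, 72.7 and 75.8 CPM in H3K9M replicates 1, 2 and 3 and at 53.7, 103 and 54.9 CPM in H3WT replicates 1, 2 and 3. Junb was also highest in H3K9M replicate 1, followed by H3WT replicate 2. The level of Jund was 193, 213 and 203 CPM in the 3 H3K9M libraries, against 190.2, 199 and 206 CPM in the 3 H3WT libraries. Jund, the JUN protein known for steady expression, was level across all 6 libraries. Jund shares 52.6% of its exon bases with the antisense gene Gm11175. For Jun the fold change was 0.49 ± 0.38 on the log2 scale with all libraries (adjusted p = 0.570 in edgeR) and -0.20 without H3K9M replicate 1.

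The EGR proteins are zinc finger factors that bind GC-rich promoters, and all 3 were highest in H3K9M replicate 1. Egr1 had 653, 89.5 and 87.8 CPM in H3K9M and 166, 96.3 and 77.1 CPM in H3WT. Egr1, the member best known in the heart, stood 3.94-fold above the next library in H3K9M replicate 1, and that next library was H3WT replicate 1. H3K9M libraries held 31.5, 5.59 and 9.67 CPM of Egr2, and H3WT libraries 4.53, 4.23 and 3.57 CPM. All 3 H3K9M libraries were above all 3 H3WT libraries for Egr2, whose promoter with a CArG box is given above. Egr3 stood at 21.1, 13.1 and 18.6 CPM in H3K9M replicates 1, 2 and 3 and at 6.09, 14.2 and 8.99 CPM in H3WT replicates 1, 2 and 3. For Egr3, a gene related to both, H3WT replicate 2 lay above H3K9M replicate 2, so the groups overlapped.

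Egr2 had the smallest adjusted p of the 37 genes, 0.127 in edgeR, at a log2 fold change of 1.92 ± 0.55. Without H3K9M replicate 1 its value was 0.89, at an adjusted p of 0.208 in edgeR. Egr1 had 1.29 ± 0.73 on the same scale (adjusted p = 0.432 in edgeR) and -0.35 without H3K9M replicate 1. Egr3 had 0.85 ± 0.29 (adjusted p = 0.199 in edgeR), and DESeq2 on the same counts gave it an adjusted p of 0.0345.

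**Figure D2:**
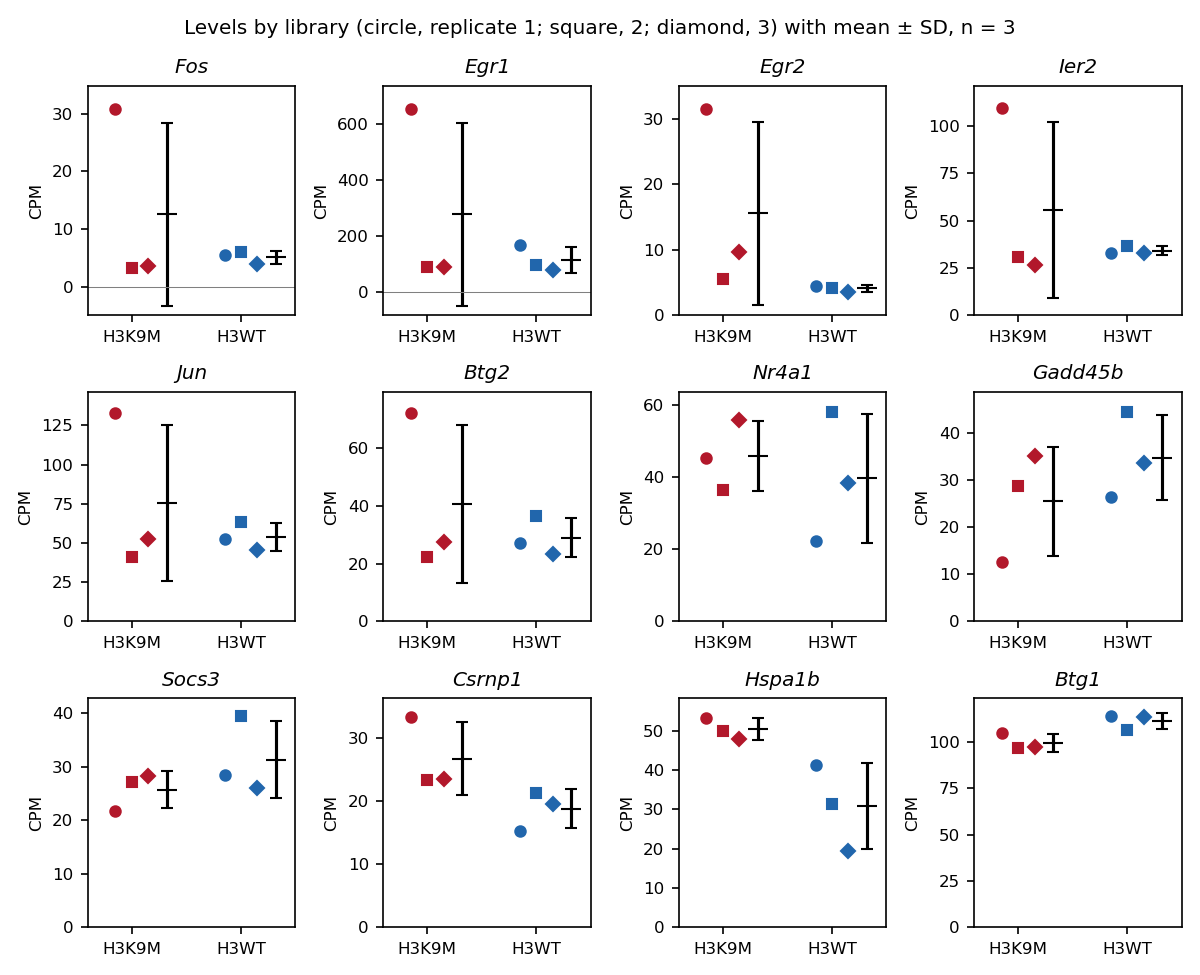
CPM of 12 of the genes in each H3K9M library (red, left) and each H3WT library (blue, right), with the mean and SD of each group (n = 3) as black bars beside the points. In Fos, Egr1, Egr2, Ier2, Jun and Btg2 the circle of H3K9M replicate 1 stands far above the other 5 points. In Gadd45b and Socs3 that circle is the lowest point. The groups do not overlap in Egr2, Csrnp1, Hspa1b and Btg1.

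The NR4A orphan nuclear receptors, induced by calcium and cyclic AMP, followed another order of libraries. The level of Nr4a1 was 45.4, 36.4 and 55.8 CPM in the 3 H3K9M libraries, against 22.3, 58.1 and 38.4 CPM in the 3 H3WT libraries. Nr4a1, also known as NUR77, was highest in H3WT replicate 2 and lowest in H3WT replicate 1, so both ends of its range were H3WT libraries. Nr4a2 had 5.11, 6.42 and 5.30 CPM in H3K9M and 5.10, 6.40 and 5.22 CPM in H3WT. Nr4a2, known for its part in dopamine neurons, varied little. Nr4a3 was at 3.06 to 5.18 CPM in H3K9M and 2.78 to 6.61 CPM in H3WT. None of the 3 was highest in H3K9M replicate 1.

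The KLF zinc finger factors were split as well. H3K9M libraries held 274, 134 and 154 CPM of Klf6, and H3WT libraries 176, 147 and 131 CPM. Klf6, induced by injury in many tissues, was highest in H3K9M replicate 1. Klf4 stood at 52.3, 70.1 and 90.2 CPM in H3K9M replicates 1, 2 and 3 and at 52.7, 61.9 and 73.8 CPM in H3WT replicates 1, 2 and 3. Klf4, a factor of smooth muscle and stem cell state, was lowest in that library by a small margin under H3WT replicate 1. The level of Klf10 was 19.2, 37.995 and 40.6 CPM in the 3 H3K9M libraries, against 21.5, 32.0 and 35.1 CPM in the 3 H3WT libraries. Klf10, an early target of TGF-β, was lowest in H3K9M replicate 1 too, and H3WT replicate 1 was next.

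Of the other transcription regulators, Csrnp1 separated the groups. Csrnp1 had 33.3, 23.3 and 23.4 CPM in H3K9M and 15.3, 21.3 and 19.5 CPM in H3WT. Csrnp1 encodes a nuclear protein induced by AXIN1, and its lowest H3K9M library lay above its highest H3WT library. H3K9M libraries held 59.2, 28.8 and 37.7 CPM of Myc, and H3WT libraries 20.5, 38.2 and 31.2 CPM. Myc, which drives growth and ribosome production, was highest in H3K9M replicate 1 and lowest in H3WT replicate 1. Atf3 stood at 13.0, 10.3 and 16.8 CPM in H3K9M replicates 1, 2 and 3 and at 5.97, 13.5 and 13.9 CPM in H3WT replicates 1, 2 and 3. Atf3, the stress-induced ATF protein, was highest in H3K9M replicate 3. The level of Maff was 35.7, 29.4 and 34.1 CPM in the 3 H3K9M libraries, against 26.3, 30.6 and 33.0 CPM in the 3 H3WT libraries. Maff, a small MAF protein, overlapped between groups. On the log2 scale the fold change of Csrnp1 was 0.51 ± 0.17 (adjusted p = 0.195 in edgeR). Without H3K9M replicate 1 it was 0.32 (adjusted p = 0.409 in edgeR), and with replicates 2 and 3 of both groups alone 0.19.

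The IER genes encode small early proteins, and H3K9M replicate 1 was the highest library for all 3. Ier2 had 109, 30.8 and 26.7 CPM in H3K9M and 32.7, 36.7 and 32.9 CPM in H3WT. Ier2, a nuclear protein, was 2.97-fold above the next library there and lowest in H3K9M replicate 3. H3K9M libraries held 57.6, 39.8 and 44.0 CPM of Ier3, and H3WT libraries 27.4, 47.1 and 38.7 CPM. Ier3, a modulator of cell death, was less spread. Ier5 stood at 94.3, 71.6 and 78.3 CPM in H3K9M replicates 1, 2 and 3 and at 75.1, 75.6 and 82.5 CPM in H3WT replicates 1, 2 and 3. Ier5, which acts with heat shock factor HSF1, overlapped fully. The fold change of Ier2 on the log2 scale was 0.70 ± 0.47 (adjusted p = 0.509 in edgeR), and -0.25 without H3K9M replicate 1.

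The MAP kinase phosphatases switch off the kinases that induce the set, and 4 of 5 had positive fold changes. The level of Dusp1 was 91.1, 59.9 and 53.2 CPM in the 3 H3K9M libraries, against 68.8, 46.1 and 47.4 CPM in the 3 H3WT libraries. Dusp1, the early nuclear phosphatase of stress kinases, was highest in H3K9M replicate 1, with H3WT replicate 1 next. Dusp4 had 84.5, 35.0 and 38.4 CPM in H3K9M and 26.3, 34.8 and 56.6 CPM in H3WT. Dusp4, another nuclear enzyme, had the 2 highest values in H3K9M replicate 1 and H3WT replicate 3. H3K9M libraries held 21.5, 21.9 and 19.2 CPM of Dusp5, and H3WT libraries 12.6, 13.0 and 19.6 CPM. Dusp5 acts on nuclear ERK, and its H3WT replicate 3 value lay within the range of H3K9M.

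Dusp6 stood at 50.9, 38.8 and 32.0 CPM in H3K9M replicates 1, 2 and 3 and at 31.8, 26.6 and 35.1 CPM in H3WT replicates 1, 2 and 3. Dusp6 acts on ERK in the cytoplasm and had 1 H3WT library, replicate 3, above the lowest H3K9M library. Dusp2 was at 0.239 to 0.750 CPM in H3K9M and 0.445 to 0.970 CPM in H3WT, the lowest of the 37. Dusp5 had a log2 fold change of 0.47 ± 0.17 (adjusted p = 0.226 in edgeR), and it passed without H3WT replicate 3, at 0.70 with an adjusted p of 0.0309. Of the Dusp5 exons 22.1% lie opposite an antisense gene.

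Genes of growth arrest and mRNA decay did not share one order of libraries. The level of Btg2 was 72.1, 22.2 and 27.6 CPM in the 3 H3K9M libraries, against 27.1, 36.5 and 23.3 CPM in the 3 H3WT libraries. Btg2, an antiproliferative protein that recruits the deadenylase, was 1.98-fold above the next library in H3K9M replicate 1. Btg1 had 105, 96.5 and 97.0 CPM in H3K9M and 114, 106 and 113 CPM in H3WT. Btg1, its relative, was lower in all 3 H3K9M libraries than in any H3WT library, by a small margin. H3K9M libraries held 58.8, 43.3 and 36.8 CPM of Zfp36, and H3WT libraries 37.8, 43.7 and 36.6 CPM. Zfp36, or tristetraprolin, binds AU-rich elements of many early transcripts and marks them for decay, and was highest in H3K9M replicate 1. For Btg1 the fold change on the log2 scale was -0.16 ± 0.07 (adjusted p = 0.300 in edgeR).

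Gadd45b stood at 12.6, 28.8 and 35.0 CPM in H3K9M replicates 1, 2 and 3 and at 26.3, 44.3 and 33.6 CPM in H3WT replicates 1, 2 and 3. Gadd45b, which activates stress kinases upstream of p38, was lowest in H3K9M replicate 1 and highest in H3WT replicate 2, whereas Fos was highest in the first of these libraries. The level of Gadd45g was 83.5, 119 and 124 CPM in the 3 H3K9M libraries, against 68.2, 97.0 and 108 CPM in the 3 H3WT libraries. Gadd45g, a related protein, was lowest in H3WT replicate 1. Socs3 had 21.8, 27.2 and 28.3 CPM in H3K9M and 28.5, 39.6 and 26.1 CPM in H3WT. Socs3, the feedback inhibitor of gp130 cytokine signalling, was also lowest in H3K9M replicate 1 and highest in H3WT replicate 2. Arc, known from synapses, was at 2.04 to 3.48 CPM in H3K9M and 1.46 to 1.71 CPM in H3WT with no overlap, and its log2 fold change was 0.86 ± 0.29 (adjusted p = 0.191 in edgeR).

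For the inducible HSP70 genes, which encode chaperones made on heat or protein damage, the H3K9M libraries lay close together and the H3WT libraries apart. The SD of log2 CPM was 0.078 in H3K9M and 0.547 in H3WT for Hspa1b, and 0.079 in H3K9M and 0.579 in H3WT for Hspa1a. H3K9M libraries held 53.3, 49.9 and 47.9 CPM of Hspa1b, and H3WT libraries 41.4, 31.4 and 19.6 CPM. All 3 H3K9M libraries were above all 3 H3WT libraries for Hspa1b. Hspa1a stood at 16.6, 17.6 and 15.8 CPM in H3K9M replicates 1, 2 and 3 and at 16.0, 12.4 and 7.30 CPM in H3WT replicates 1, 2 and 3. For Hspa1a, H3WT replicate 1 lay within the H3K9M range and replicates 2 and 3 below it. On the log2 scale the fold change was 0.71 ± 0.23 for Hspa1b (adjusted p = 0.165 in edgeR) and 0.49 ± 0.24 for Hspa1a (adjusted p = 0.377 in edgeR). DESeq2 gave Hspa1b an adjusted p of 0.0168, and edgeR called it without H3WT replicate 1, at 0.98 with an adjusted p of 0.0466. Without H3WT replicate 3, the lowest library for both genes, edgeR gave 0.47 for Hspa1b (adjusted p = 0.104) and 0.23 for Hspa1a (adjusted p = 0.457).

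Hspa1a and Hspa1b are near copies of one another that lie next to each other, and 60.3% of the 50-base words of Hspa1a transcripts and 62.3% of those of Hspa1b also occur in another gene. Their 300-base promoter windows carried the same letter at 296 of 300 positions (98.7%). Another 19.0% of the Hspa1a exon bases lie opposite the gene Gm20481. The split of reads between the pair is therefore uncertain. The sum does not depend on that split, but it misses reads that match both genes if these were not counted. It was 69.99, 67.5 and 63.7 CPM in H3K9M replicates 1, 2 and 3, against 57.4, 43.8 and 26.9 CPM in H3WT replicates 1, 2 and 3. The sum was higher in every H3K9M library than in any H3WT library. Its mean was 67.1 ± 3.18 CPM in H3K9M and 42.7 ± 15.3 CPM in H3WT (SD, n = 3), and an exact permutation test of 3 libraries against 3 cannot give a two-sided p below 0.1.

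On the scale of CPM per kilobase of annotated exon, which allows levels to be compared between genes, Jund led with a mean of 120.5 over the 6 libraries, followed by Gadd45g at 85.3, Egr1 at 43.5, Klf6 at 38.6, Ier3 at 37.5 and Junb at 35.4. The value for Egr1 was 145.7 in H3K9M replicate 1 and 17.2 in H3WT replicate 3, its highest and lowest, so its place in that order depends on the library, and Klf6, Ier3 and Junb lay within each other's spread. At the other end, Fosb, Dusp2, Arc and Nr4a3 had means of 0.244, 0.288, 0.712 and 0.748. Fos itself had a mean of 3.77, with 13.1 in H3K9M replicate 1 and 1.42 to 2.56 in the other 5 libraries.

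The groups did not overlap for 5 of the 37 genes, Egr2, Csrnp1, Arc and Hspa1b being higher and Btg1 lower in H3K9M. Over all tested genes this share was 22.6%, made up of 11.3% higher and 11.3% lower, so the count for the 37 genes lay below the background. An unadjusted edgeR p under 0.05 was reached by 7 of the 37 genes (Egr2, Egr3, Csrnp1, Arc, Hspa1b and Dusp5 higher, Btg1 lower), against 16.4% of all tested genes. DESeq2 called 2 of the 37 (Egr3 and Hspa1b) and 6.90% of all tested genes, and limma-voom called 0 of the 37 and 1.50% of all, so neither tool gave the 37 genes a share above the background. For Fos, DESeq2 returned no p-value.

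**Figure D3:**
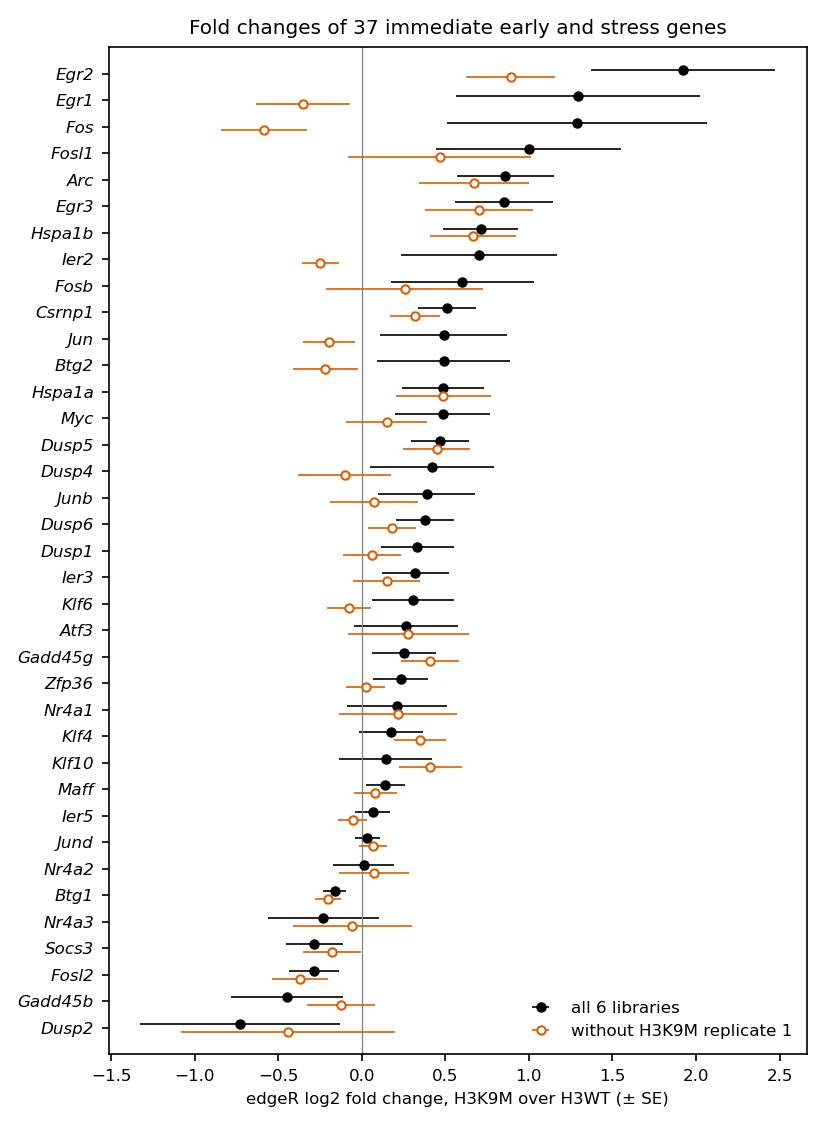
edgeR log2 fold changes of the 37 genes, H3K9M over H3WT, with standard errors, from all 6 libraries (black) and without H3K9M replicate 1 (orange). Without that library 8 genes cross to negative values (Fos, Egr1, Ier2, Btg2, Jun, Dusp4, Klf6 and Ier5), whereas Egr2, Egr3, Arc, Hspa1b, Hspa1a, Csrnp1 and Dusp5 stay positive, and no black point passed the adjusted threshold.

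All 37 genes were in the authors' deposited table of this contrast, with the sign found here for each. The authors' deposited table put 2 of the 37 past an adjusted p of 0.05, where 591 of its 14691 genes (4.02%) were past it. The 2 in the authors' deposited table were Hspa1b at 0.82 on the log2 scale (adjusted p = 0.00287) and Egr3 at 0.82 (adjusted p = 0.0174). For Egr2 the authors' deposited table gave 2.18 with an adjusted p of 0.0855.

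The lead of H3K9M replicate 1 can be set beside that of other genes of the library. Gene models named Gm or Rik, pseudogenes and similar symbols were left out of all such rankings. The 7343 other tested genes with at least 20 CPM in H3K9M replicate 1 were ranked by the ratio to the next highest library. Fos (5.13-fold), Egr1 (3.94-fold), Egr2 (3.26-fold) and Ier2 (2.97-fold) held the first 4 places. The fifth was Sprr2a3, a small proline-rich protein gene of the skin envelope, at 2.58-fold. Jun was at place 9, Btg2 at 13, Fosl1 at 16, Klf6 at 31, Myc at 32 and Dusp4 at 41. Fos, Egr2 and Fosl1 reached the minimum of 20 CPM in no other library, so they entered this order through the value it ranks. With the minimum set on the mean of the other 5 libraries, a choice made after seeing the data, 7398 genes were ranked, those 3 were left out, and Egr1 was at place 1, Ier2 at 2, Jun at 4, Btg2 at 7, Klf6 at 19, Myc at 20 and Dusp4 at 27. The other 2 of the first 5 were Xirp2, a muscle actin-binding protein gene (2.15-fold), and Nppb, which encodes brain natriuretic peptide (2.06-fold). With no such minimum and no symbols left out, 38 tested genes (0.257%) had at least a 2-fold lead in H3K9M replicate 1, and 5 of them were among the 37.

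Other libraries were led by other genes. In H3WT replicate 2 the first 5 were the chemokine genes Cxcl1 (20.6-fold), Ccl7 (4.87-fold) and Ccl2 (3.51-fold), followed by Plac9a (3.44-fold) and Plac9b (3.30-fold), and Socs3 (1.39-fold), Fosl2 (1.35-fold) and Gadd45b (1.26-fold) were at places 14, 15 and 20. None of the first 5 had 20 CPM in another library, and with the minimum on the mean of the other 5 libraries Nfkbia (2.39-fold) led, with Socs3 at place 4, Fosl2 at 5 and Gadd45b at 10. In H3WT replicate 1 the leading genes were Abca8a, Dpt, Sod3, Lgi2 and Igfbp5, at 4.47-fold to 2.73-fold. Abca8a and Lgi2 reached 20 CPM in no other library, and with the minimum on the mean of the other 5 libraries Dpt led. With no minimum and no symbols left out, 116 tested genes (0.786%) had at least a 2-fold lead there, none of them among the 37. H3WT replicate 3 was led by Tll1, Sox11, Cdh5, Pecam1 and Gja3, at 1.75-fold to 1.46-fold. Tll1 and Sox11 reached 20 CPM in that library alone, and with the minimum on the mean of the other 5 libraries Cdh5 led.

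H3K9M replicate 2 was led by Mt2, Ctla2a, Hmces, Actg2 and Ngdn, at 1.49-fold to 1.29-fold. H3K9M replicate 3 was led by Fndc5, Abcc9, Tg, Igfbp6 and Fam124a, at 1.60-fold to 1.38-fold. Mt2 and Hmces reached 20 CPM in H3K9M replicate 2 alone, and Fndc5, Tg, Igfbp6 and Fam124a in H3K9M replicate 3 alone. With the minimum on the mean of the other 5 libraries, Ctla2a led in H3K9M replicate 2 and Abcc9 in H3K9M replicate 3. None of these genes belongs to the 37.

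**Figure D4:**
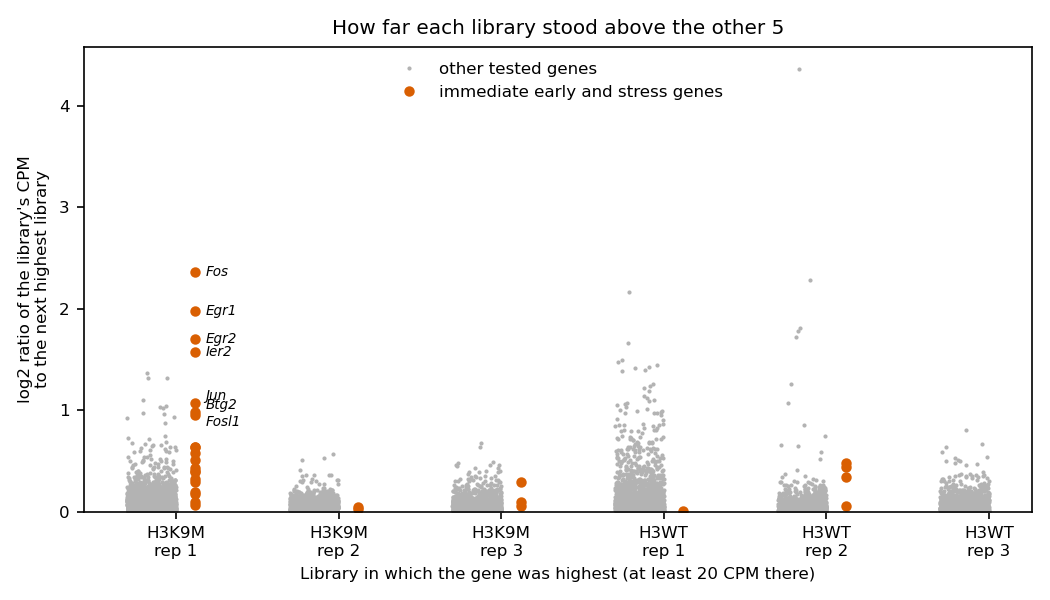
For each tested gene with at least 20 CPM in the library where it was highest, the log2 ratio of that library to the next highest, by library (grey, other genes; orange, the immediate early and stress genes). Gene models and pseudogenes are drawn too, although they were left out of the ranking in the text. Among the remaining genes the 4 highest points in H3K9M replicate 1 are Fos, Egr1, Egr2 and Ier2, of which Fos and Egr2 pass the minimum in no other library. Among the same genes the highest point in H3WT replicate 2 is Cxcl1, which likewise passes the minimum there alone.

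Other genes of the pathway were listed by their function. Of 19 SRF, TCF and CREB regulators, 26 genes of the ERK cascade, 21 of the JNK and p38 cascade and 17 other AP-1, ATF and MAF factors, 0 passed the edgeR test in either direction. Over all tested genes 1.99% passed. The level of Srf was 201, 168 and 175 CPM in the 3 H3K9M libraries, against 134, 153 and 159 CPM in the 3 H3WT libraries. Srf encodes the factor that binds CArG boxes, and its edgeR adjusted p was 0.196. Spry1 had 85.1, 105 and 104 CPM in H3K9M and 213, 168 and 123 CPM in H3WT. Spry1 encodes a feedback inhibitor of ERK signalling, with an edgeR adjusted p of 0.0762, and DESeq2 called it. H3K9M libraries held 152, 147 and 139 CPM of Mapk3, and H3WT libraries 140.3, 149 and 148 CPM. Mapk3 encodes the kinase ERK1 and was level across the libraries.

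Of 47 other activity-induced genes tested, 24 had positive fold changes, 0 passed higher and 2 passed lower, where 1.99% of all tested genes passed. Npas4 stood at 0.888, 0.691 and 0.820 CPM in H3K9M replicates 1, 2 and 3 and at 3.30, 3.39 and 3.07 CPM in H3WT replicates 1, 2 and 3. Npas4, a neuronal activity factor, fell in H3K9M, at -2.02 ± 0.27 on the log2 scale (adjusted p = 0.0117 in edgeR; 0.0814 without H3WT replicate 2). The level of Id3 was 54.3, 65.4 and 67.9 CPM in the 3 H3K9M libraries, against 129.8, 131 and 83.0 CPM in the 3 H3WT libraries. Id3, an inhibitor of basic helix-loop-helix factors and a BMP target, fell by 0.87 ± 0.17 on the same scale (adjusted p = 0.0443 in edgeR). With 1 of the H3K9M replicates 1, 2 and 3 left out, its adjusted p was 0.129, 0.126 and 0.111, with H3WT replicate 1 or 2 left out it was 0.0924 and 0.179, and with limma-voom it was 0.0607, so the call ended in each of these settings. H3K9M replicate 1 was the highest library for 16 of these 47 genes and H3WT replicate 2 for 15. Over all tested genes these shares were 20.04% for H3K9M replicate 1 and 13.7% for H3WT replicate 2. Cyr61, a matricellular gene of the early response named here after its values were seen, was at 807, 343 and 328 CPM in H3K9M and 571, 365 and 343 CPM in H3WT.

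Of 28 heat shock chaperones beside the inducible pair, 0 passed the edgeR test, 25 had positive fold changes, the median log2 fold change was 0.12, and 16 were highest in H3K9M replicate 1. Over all tested genes 49.5% had positive fold changes and 20.04% were highest in that library. Hspa8 had 1832, 1663 and 1727 CPM in H3K9M and 1341, 1473 and 1516 CPM in H3WT. Hspa8 encodes the constitutive HSC70, and had no overlap between groups and an edgeR adjusted p of 0.174. H3K9M libraries held 540.0, 484 and 489 CPM of Cryab, and H3WT libraries 417, 390.1 and 428 CPM. Cryab, the small heat shock protein of muscle, had no overlap between groups and an edgeR adjusted p of 0.117. DESeq2 called Hspa8 and Cryab of the 28, where it called 6.90% of all tested genes. Over all tested genes 22.6% had no overlap between groups. Hsp90ab1 stood at 1947, 1849.6 and 1869 CPM in H3K9M replicates 1, 2 and 3 and at 1597, 1861 and 1939 CPM in H3WT replicates 1, 2 and 3. Hsp90ab1, the constitutive HSP90, overlapped. Of 21 genes of the unfolded protein and integrated stress response and 15 p53 and DNA damage targets, 0 passed the edgeR test in either direction, where 1.99% of all tested genes did. Of the p53 targets DESeq2 called Phlda3, Ccng1 and Rrm2b, each higher in H3K9M without overlap between groups.

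**Figure D5:**
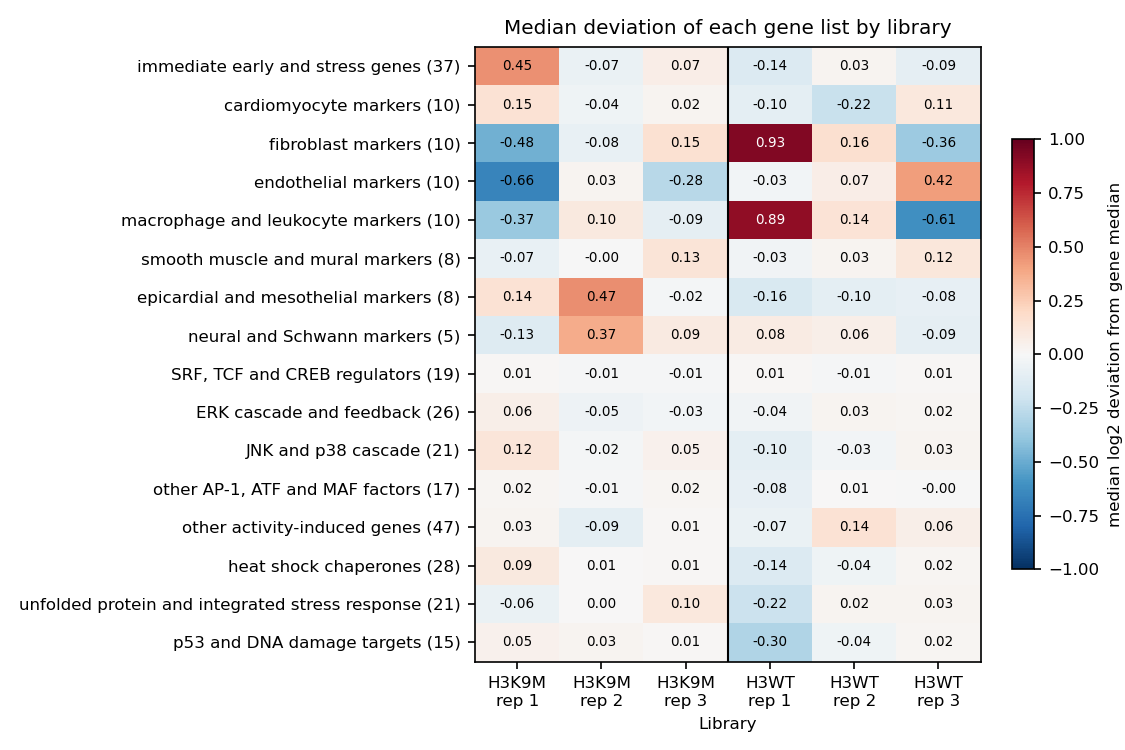
Median over each gene list of log2(CPM + 0.5) minus the median of the gene over the 6 libraries, by library, with the number of tested genes in brackets. The 37 genes stand at 0.45 in H3K9M replicate 1 and between -0.14 and 0.07 elsewhere, whereas fibroblast and macrophage markers are below 0 in H3K9M replicate 1 (-0.48 and -0.37) and highest in H3WT replicate 1 (0.93 and 0.89). These markers are also below 0 in H3WT replicate 3 (-0.36 and -0.61).

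In H3K9M replicate 1, where the 37 genes had a median of 0.45 above their gene medians, the 10 endothelial markers had a median of -0.66, the 10 fibroblast markers -0.48, the 10 macrophage and leukocyte markers -0.37 and the 10 cardiomyocyte markers 0.15. In H3WT replicate 3 the 37 genes had a median of -0.09. Fibroblast markers stood there at -0.36, macrophage and leukocyte markers at -0.61, cardiomyocyte markers at 0.11 and endothelial markers at 0.42. Endothelial markers summed to 126, 201 and 148 CPM in H3K9M and 219, 215 and 287 CPM in H3WT. The part of these differences in cell markers in the levels of the immediate early genes was not tested. Library totals and TMM factors of H3K9M replicate 1 (59010177 counts, factor 0.992) lay within the range of the other libraries.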

How the data were processed

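Polyadenylated RNA of 3 H3K9M and 3 H3WT samples was sequenced from Tecan Universal Plus mRNA libraries, per the labels' protocols. HISAT2, featureCounts and DESeq2 with the build mm10 stand in the submitters' processing notes. Their versions, and whether reads were counted by strand, were not given in the sources used here. Raw read counts per gene were deposited by the authors for 15159 genes, with the smallest row total at 19. The authors also deposited their DESeq2 results, with a mean normalised count (a signal), log2 fold change, p-value and adjusted p-value, and a Wald score not used here.

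After filterByExpr (minimum count 10, minimum total 15; 14758 genes kept), counts were normalised with TMM and tested by quasi-likelihood (edgeR 4.0.16, R 4.3.3) for the group term alone, on the whole table with Benjamini-Hochberg adjustment at 0.05. Levels are CPM on TMM library sizes. Standard errors were taken from the F statistic as the size of the log2 value divided by the root of F, with a median of 0.278 for the 37 genes and 0.133 for all tested genes at a common dispersion of 0.0353. Alternatives were DESeq2 1.42.0, limma-voom (limma 3.58.1), RLE factors, library totals, other filters, a replicate block, leaving out each library, and replicates 2 and 3 alone. Leaving out libraries for the count of genes highest in H3K9M replicate 1 was chosen after seeing the data, as was the minimum on the other 5 libraries for ranking genes.

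Positions, exon lengths and overlaps came from GENCODE M21 (GRCm38), and upstream sequences from RefSeq (GRCm38.p6). The chi-square per gene between replicates was 27.2 to 121.5, so no library was a copy. The members and lists were chosen with earlier results of these data known. Each of the 37 genes with a mean of at least 5 CPM (33 genes) is named with its level in every library. Of each other list, genes past the threshold are named, or else up to 2 with the smallest p and 2 with the highest CPM, not all of which are given here. For each library the 5 genes with the largest ratio to the next library are named, among genes with at least 20 CPM there. Gene models named Gm or Rik, pseudogenes and similar symbols were left out of that ranking.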

Additional observations from a re-analysis of the deposited data

How the results depend on the processing

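The 12 fold changes printed for the immediate early and stress genes were recomputed under 14 alternatives, which gave 167 values. Of these, 156 kept their sign and did not change side of the threshold. DESeq2 gave no p-value for Fos, whose DESeq2 value was counted among the 156 by its sign alone. Without H3K9M replicate 1, 4 of the 12 changed sign: Fos (-0.58), Egr1 (-0.35), Ier2 (-0.25) and Jun (-0.20), whose highest values on leaving out 1 library were 1.73, 1.72, 1.04 and 0.78. With replicates 2 and 3 of both groups alone, Fos was at -0.52, Ier2 at -0.28 and Jun at -0.21, and the median of the 37 genes was -0.00285. The other 4 became calls: Egr3 and Hspa1b with DESeq2, Hspa1b without H3WT replicate 1 and Dusp5 without H3WT replicate 3. The number of the 37 genes called was 2 with DESeq2 (6.90% of all tested genes) and 0 to 1 on leaving out 1 library (0.403% to 2.497% of all). Their number without overlap between groups was 7 to 11 on leaving out 1 library, against 29.7% to 37.5% of all tested genes, and 12 of 37 with replicates 2 and 3 alone, against 45.6% of all, where fewer libraries make overlap less frequent. Over all genes, 1019 were called with DESeq2 and 60 to 372 on leaving out 1 library. Genes of the other lists called numbered 16 with DESeq2, 1 with limma-voom (Npas4), 1 with at least 5 CPM in 3 libraries (Id3, Npas4 not being tested there) and 0 to 9 on leaving out 1 library. The cause of these changes was not tested. Some of these settings also held fewer libraries or genes, which was not separated from the other differences. The replicate numbers were not taken to pair the samples, because the labels do not state a pairing. Over all tested genes the correlations of same-numbered deviations were -0.245, 0.0467 and -0.118, and H3K9M replicate 1 correlated best with H3WT replicate 3 (0.263). Taken from group means of 3 libraries, these values cannot decide whether the shared tags M1 and M5 mark paired samples. With a replicate block 58 genes were called over all genes, 0 of the 37 and 0 of the other lists. The block lowered the standard error of some of the 37 genes, as for Dusp1 (0.219 to 0.085) and Gadd45g (0.191 to 0.071). It raised that of others, as for Egr3 (0.295 to 0.353) and Fosb (0.429 to 0.529). RLE factors, library totals and no filter changed no call among the 37 genes. With 3 libraries a group, and a median standard error of 0.278, small differences in these variable genes were not detectable.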
